A study of Rattus norvegicus with 32 samples.

Results

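Expression of 5 genes of renal glucose handling, of the 26404 genes listed in each library, was followed in the renal cortex of rats. They were Txnip (ENSRNOG00000021201), Slc2a1 (ENSRNOG00000007284), Slc2a2 (ENSRNOG00000011875), Fbp1 (ENSRNOG00000017597) and Hk2 (ENSRNOG00000006116). They were chosen as named genes of glucose sensing, transport, synthesis and phosphorylation, with earlier results of these data known. Their counts and sizes of change, set beside those of all genes, are therefore descriptive only. Each identifier was kept only if it lay on the chromosome where RefSeq places the gene of that name. All 5 did, and all 5 passed the filter on low counts in the fit across 14776 genes.

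The rats fell into 4 groups. SD were Sprague Dawley rats that served as healthy controls of another strain. SHAM were Zucker Diabetic Sprague Dawley (ZDSD) rats, a polygenic model of obesity and type 2 diabetes, that had a laparotomy only. RYGB were ZDSD rats after Roux-en-Y gastric bypass, and RYGB-FMRR were ZDSD rats after the same operation that were also given fenofibrate, metformin, ramipril and rosuvastatin in the chow. All were male, all 4 groups are labelled as aged 37 weeks, and the 3 ZDSD groups had received insulin degludec before surgery. SD and SHAM differed in strain, in diabetes, in insulin before surgery and in surgery at once. These cannot be told apart in any comparison with SD. The study's methods place sham surgery at a younger age than bypass surgery, and bypass slightly earlier in RYGB-FMRR than in RYGB, with the same length of follow-up. By those ages SHAM rats were younger at sampling than the operated rats, against the labels, and age and date of surgery cannot be told apart from the group in comparisons among the ZDSD rats. Each library came from a different rat.

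Total counts of the 29 libraries used ranged from 14502127 to 27597901, from 6 SD, 7 SHAM, 9 RYGB and 7 RYGB-FMRR rats. The median total was lower in SHAM (19835551) than in SD (24089205.5). Another 2 SHAM libraries, with totals of 121511 and 101534, were left out, and 1 RYGB-FMRR rat was not analysed here. The files do not pair identifiers with gene names, so markers of the labelled tissue and of its cell types were not analysed here.

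Glucose filtered by the glomerulus is taken up across the brush border of the proximal tubule and leaves the cell across its basolateral side. Slc2a2 encodes GLUT2, the low-affinity basolateral transporter of the early proximal tubule, and Slc2a1 encodes GLUT1, the high-affinity transporter found in later tubule segments and in many other cells. The proximal tubule also makes glucose, with Fbp1 encoding fructose-bisphosphatase, a control step of gluconeogenesis, whereas Hk2 encodes a hexokinase, which traps glucose in the cell by phosphorylation. Txnip encodes an arrestin-like protein that binds thioredoxin and restrains glucose uptake, and its transcription is known to rise with glucose through the factors ChREBP and MondoA.

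In the rn5 annotation used for counting, Txnip lay at chr2:218170012-218173900 on the plus strand with 8 exon intervals. Slc2a1 lay at chr5:141964114-141992634 on the plus strand with 10, and Slc2a2 at chr2:134112905-134144457 on the plus strand with 11. Fbp1 lay at chr17:391470-412426 on the minus strand with 6, and Hk2 at chr4:178239350-178288251 on the minus strand with 18. No other annotated gene overlapped the span of any of the 5, and counting used strand.

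The promoters of the transporter pair are shown because Slc2a1 was the gene that differed between RYGB and SHAM, and Slc2a2 differed most from SD. Each holds 250 bases before and 50 bases after the transcript start in RefSeq, build GRCr8, on the plus strand, at chr5:138002272-138002571 for Slc2a1 and chr2:113540120-113540419 for Slc2a2. Capitals mark matches, on either strand, to the motifs named after the sequences.
Slc2a1 promoter: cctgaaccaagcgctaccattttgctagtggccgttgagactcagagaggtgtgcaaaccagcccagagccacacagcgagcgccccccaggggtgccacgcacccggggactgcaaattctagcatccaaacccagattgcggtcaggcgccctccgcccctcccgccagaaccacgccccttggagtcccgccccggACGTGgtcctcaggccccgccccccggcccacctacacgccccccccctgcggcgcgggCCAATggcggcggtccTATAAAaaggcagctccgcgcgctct
Slc2a2 promoter: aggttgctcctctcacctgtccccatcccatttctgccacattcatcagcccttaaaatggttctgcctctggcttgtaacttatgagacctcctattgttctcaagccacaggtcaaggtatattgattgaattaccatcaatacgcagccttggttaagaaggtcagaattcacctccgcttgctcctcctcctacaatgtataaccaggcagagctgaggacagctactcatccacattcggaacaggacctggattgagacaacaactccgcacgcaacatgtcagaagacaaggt

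The Slc2a1 window was 68.3% G and C and held ACGTG (the core of the hypoxia response element) starting 51 bases before the start, and CCAAT and TATAAA starting at bases 9 and 25 of the transcript as annotated. Of all 33469 promoters in the table, 19.3% held ACGTG, 37.5% held CCAAT and 14.2% held TATAAA. The Slc2a2 window was 47.7% G and C and held none of these. The E-box CACGTG, of which ACGTG is a part, the carbohydrate response element and the PPAR response element were searched too, on both strands, and none of them was in the windows of Slc2a1, Slc2a2, Fbp1 or Hk2. These are held by 6.42%, 0.562% and 0.0538% of all promoters. A match is only a run of letters, and its absence refers to these 300 bases alone. The promoter of Txnip was not used here.

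Levels are given as FPKM, fragments per unit of exon length and of library depth after TMM scaling between libraries, so that genes can be set side by side per length. In 28 of 29 rats the order from highest to lowest level was Fbp1, Txnip, Slc2a2, Slc2a1 and Hk2. In the other rat, SHAM rat 333, the Txnip level (513 FPKM) stood above that of Fbp1 (465 FPKM). Mean levels in SD were 950 ± 135 FPKM (SD, n = 6) for Fbp1, 180 ± 42.5 for Txnip, 34.2 ± 8.41 for Slc2a2, 24.0 ± 3.87 for Slc2a1 and 2.28 ± 0.729 for Hk2, where the value after ± is the standard deviation between rats throughout. Slc2a2 and Slc2a1 were the nearest neighbours in this order, and their ranges overlapped in SD (24.9 to 44.8 and 21.5 to 31.8 FPKM), although Slc2a2 was the higher of the pair in each of the 29 rats.

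**Figure D1:**
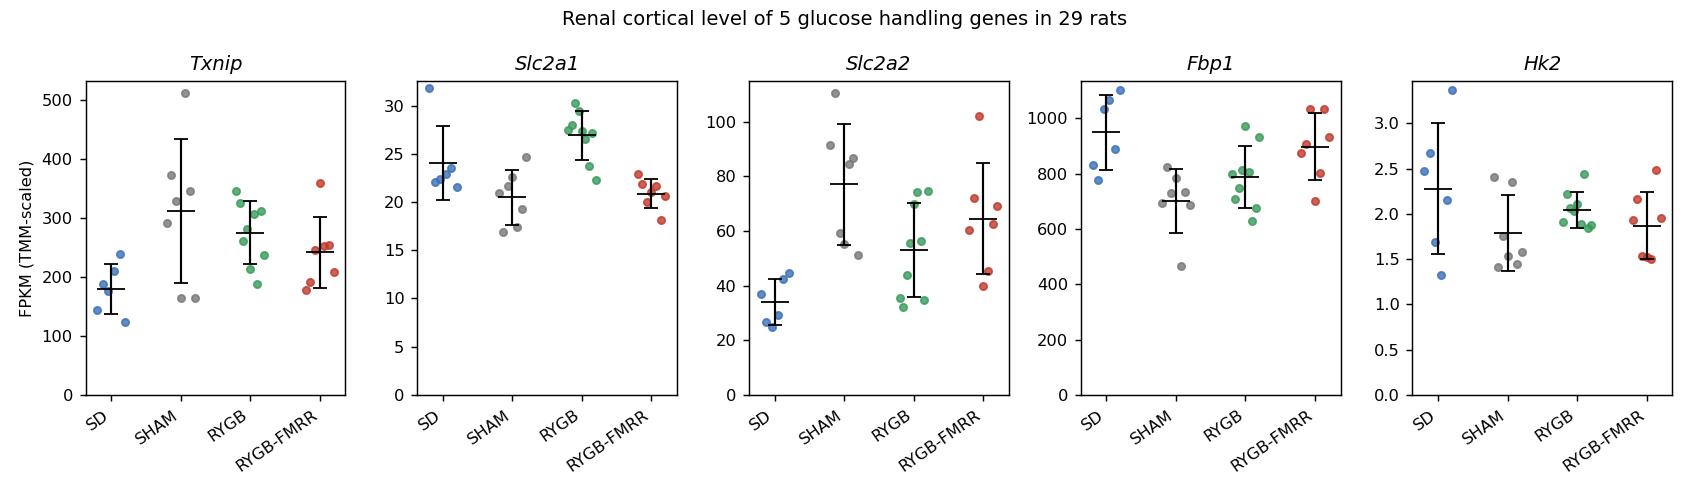
Level of each gene in FPKM (vertical axes, each from 0) in every rat (points) of the 4 groups, with the mean and standard deviation between rats (bar and whiskers). The 7 SHAM rats lay above all 6 SD rats for Slc2a2, 7 of 9 RYGB rats lay above every SHAM rat for Slc2a1, and SHAM rats spread widest for Txnip (164 to 513 FPKM).

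SHAM rats differed from SD rats in the expression of Txnip, Slc2a2 and Fbp1. Txnip was 1.73-fold higher, Slc2a2 was 2.26-fold higher and Fbp1 was 1.35-fold lower in SHAM, while Slc2a1 and Hk2 did not pass both thresholds. The comparison sets diabetic ZDSD rats after sham surgery against healthy rats of another strain. Strain, diabetes, insulin and surgery cannot be told apart in it. A gene was called when its fold change was at least 1.3 in either direction and its adjusted p was under 0.05. By that rule 3 of the 5 genes were called, beside 18.6% of all genes tested in the same comparison. The median absolute log2 fold change was 0.44 over the 5 genes and 0.19 over all genes tested. In bulk tissue, fewer cells of a type and less RNA per cell cannot be told apart, which applies to every difference given here.

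Txnip ran from 123 to 239 FPKM in SD with a median of 183, and from 164 to 513 FPKM in SHAM with a median of 329. In all, 5 of the 7 SHAM rats lay above every SD rat, and the other two, rats 321 (164 FPKM) and 340 (165 FPKM), lay inside the SD range. The log2 fold change was 0.79 (SE 0.22, 95% interval 0.35 to 1.23, adjusted p = 0.00568 by edgeR's quasi-likelihood test with Benjamini-Hochberg adjustment). The call held with any single one of the 29 rats left out.

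Slc2a2 ran from 24.9 to 44.8 FPKM in SD with a median of 33.1, and from 51.3 to 111 FPKM in SHAM with a median of 84.5. All 7 SHAM rats lay above all 6 SD rats, and Slc2a2 was the only one of the 5 genes whose groups did not overlap in this comparison, beside 8.63% of all genes tested. Its log2 fold change was 1.17 (SE 0.23, 95% interval 0.70 to 1.65, adjusted p = 0.000352 by edgeR's quasi-likelihood test), in absolute size above 96.3% of all genes tested. This call also held with any single rat left out.

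Fbp1, the gluconeogenic enzyme, moved the other way. It ran from 777 to 1103 FPKM in SD with a median of 962, and from 465 to 823 FPKM in SHAM with a median of 729. Here 5 of 7 SHAM rats lay below every SD rat. On the log2 scale the fold change was −0.44 (SE 0.12, 95% interval −0.68 to −0.20, adjusted p = 0.0049 by edgeR's quasi-likelihood test). SHAM rat 333 was the lowest by a wide gap, and without it the difference was 1.28-fold, under the fold threshold, with an adjusted p of 0.0116 in edgeR.

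Slc2a1 ran from 21.5 to 31.8 FPKM in SD with a median of 22.7, and from 16.9 to 24.7 FPKM in SHAM with a median of 20.9. In this case 4 of 7 SHAM rats lay below every SD rat, but the log2 fold change of −0.23 (SE 0.09, adjusted p = 0.0453 in edgeR) came to 1.17-fold, short of the threshold of 1.3. The adjusted p was not stable either. Without SD rat 352, the highest of its group, the log2 fold change was −0.13 with an adjusted p of 0.199 in edgeR. Over all fits without 1 rat the adjusted p in edgeR ran from 0.0142 to 0.199. Under 6 other ways of processing it ran from 0.0338 to 0.116 in edgeR or DESeq2. The hexokinase gene Hk2 ran from 1.32 to 3.37 FPKM in SD with a median of 2.32, and from 1.42 to 2.40 FPKM in SHAM with a median of 1.58. Its log2 fold change of −0.35 (SE 0.17, adjusted p = 0.102 in edgeR) did not pass the test. Without SD rat 355, or without SHAM rat 311, Hk2 passed both thresholds (1.38-fold lower with adjusted p = 0.0246, and 1.36-fold lower with adjusted p = 0.0448, in edgeR). With 86 to 240 counts per library, counting error alone gave Hk2 a coefficient of variation of 7.33% to 8.73%, against 32.0% between SD rats and 9.61% between RYGB rats.

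**Figure D2:**
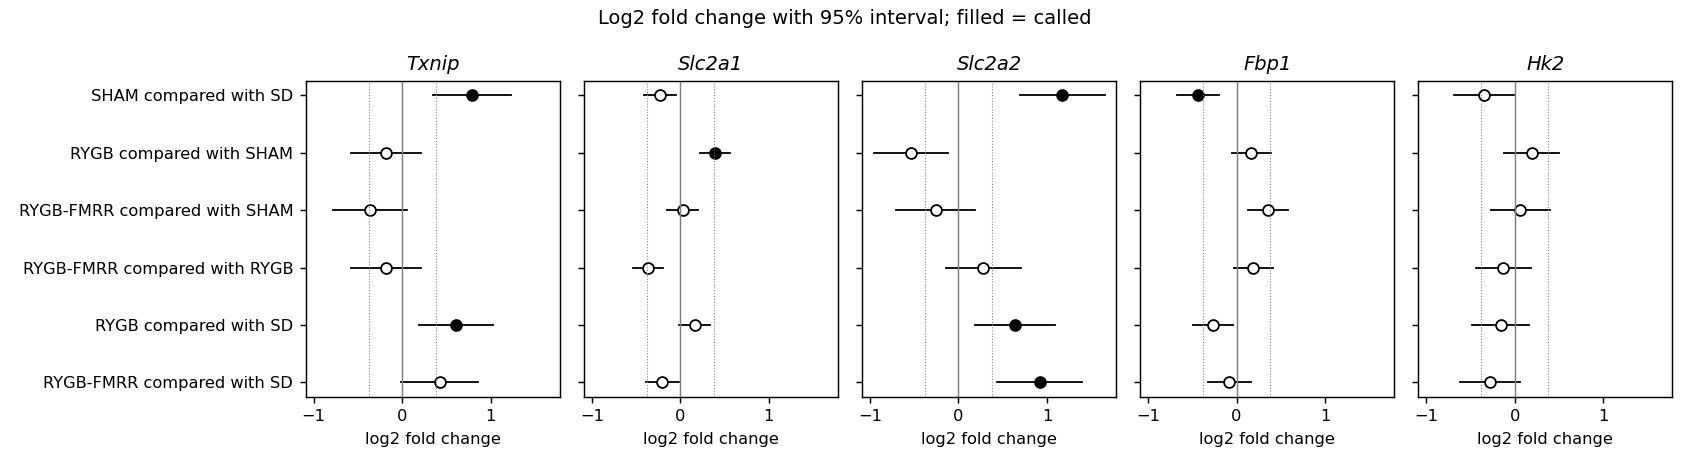
Log2 fold change of each gene (points) with its 95% interval (lines) in 6 comparisons, where filled points passed both thresholds and dotted lines mark a 1.3-fold change. Slc2a2 stood furthest from 0, at 1.17 in SHAM compared with SD, and Slc2a1 was the filled point in RYGB compared with SHAM, at 0.39.

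Slc2a1 was 1.31-fold higher in RYGB than in SHAM, and no other of the 5 genes passed both thresholds. Here 1 of the 5 genes was called, beside 5.35% of all genes tested. This comparison sets the operation without drugs against sham surgery in diabetic rats, with the differences in age and date of surgery given above. Slc2a1 had a median of 27.4 FPKM in RYGB (22.3 to 30.2) and of 20.9 FPKM in SHAM (16.9 to 24.7). All 9 RYGB rats lay above the SHAM median and 7 of them above every SHAM rat. As a log2 fold change this was 0.39 (SE 0.08, 95% interval 0.23 to 0.56, adjusted p = 0.00209 by edgeR's quasi-likelihood test). The fold lay just over its threshold. Leaving out SHAM rat 315, SHAM rat 333, RYGB rat 319 or RYGB rat 330 brought it to 1.28, 1.28, 1.29 and 1.298, each just under the threshold, while the adjusted p in edgeR stayed at or under 0.00725.

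Slc2a2 pointed to the opposite side of SHAM. RYGB rats ran from 32.2 to 74.5 FPKM with a median of 55.5, against a SHAM median of 84.5, and all 9 lay under that median. The 4 RYGB rats with the lowest levels (308, 309, 319 and 346) lay below every SHAM rat, while the other five overlapped with SHAM. The log2 fold change was −0.54 (SE 0.21, 95% interval −0.96 to −0.12), and with an adjusted p of 0.0804 by edgeR's quasi-likelihood test it was not called. Without SHAM rat 340, the lowest of its group, it was −0.62 with an adjusted p of 0.0418 in edgeR. Without SHAM rat 315, the highest of its group, it was −0.42 with an adjusted p of 0.208 in edgeR. These were the ends of the range over all fits without 1 rat, and in 28 of 29 such fits Slc2a2 was not called.

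Txnip, Fbp1 and Hk2 gave no call between RYGB and SHAM. Txnip had a median of 282 FPKM in RYGB (188 to 346), with a log2 fold change of −0.18 and a 95% interval of −0.58 to 0.21 (adjusted p = 0.581 in edgeR). Fbp1 had a median of 798 FPKM (630 to 974), with a log2 fold change of 0.17 and an interval of −0.05 to 0.38 (adjusted p = 0.319 in edgeR). Hk2 had a median of 2.04 FPKM (1.85 to 2.45), with a log2 fold change of 0.19 and an interval of −0.12 to 0.51 (adjusted p = 0.432 in edgeR). Each of these 3 intervals held both 0 and changes of more than 1.3-fold.

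After RYGB-FMRR none of the 5 genes was called relative to SHAM, beside 12.1% of all genes tested. At an unadjusted p under 0.05, 1 of the 5 passed in edgeR, Fbp1, beside 34.2% of all genes tested. The comparison uses the same SHAM rats as that of RYGB. Fbp1 ran from 702 to 1036 FPKM in RYGB-FMRR with a median of 906, and 5 of the 7 rats lay above every SHAM rat. Its log2 fold change was 0.36 (SE 0.11, 95% interval 0.12 to 0.59, adjusted p = 0.0231 by edgeR's quasi-likelihood test), and its 1.28-fold difference fell short of 1.3. Without SHAM rat 315 or 321, or RYGB-FMRR rat 324 or 326, the fold lay between 1.303 and 1.326 and the gene was called. Single rats also weakened it. Over all fits without 1 rat, the log2 fold change ran from 0.28 to 0.41 and the adjusted p from 0.0111 to 0.0573 in edgeR.

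For Slc2a1 the level in RYGB-FMRR (median 21.1, range 18.1 to 22.9 FPKM) lay inside the SHAM range in all 7 rats. The log2 fold change from SHAM was 0.03 (SE 0.09, 95% interval −0.15 to 0.20, adjusted p = 0.857 in edgeR), an interval that leaves out a 1.3-fold change in either direction. Txnip had a median of 247 FPKM (178 to 360) and a log2 fold change of −0.37 (SE 0.21, 95% interval −0.79 to 0.05, adjusted p = 0.209 in edgeR). Slc2a2 had a median of 62.4 FPKM (39.8 to 102) and a log2 fold change of −0.26 (SE 0.22, adjusted p = 0.432 in edgeR). Hk2 had a median of 1.93 FPKM (1.51 to 2.48) and a log2 fold change of 0.07 (SE 0.16, adjusted p = 0.812 in edgeR).

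Between the operated groups, which differed by the 4 drugs and by the date of surgery, 0 of the 5 genes were called, beside 4.56% of all genes tested. The count at an unadjusted p under 0.05 in edgeR was 1 of the 5, Slc2a1, beside 26.3% of all genes tested. It was lower in RYGB-FMRR than in RYGB, with 6 of 7 RYGB-FMRR rats below every RYGB rat. The log2 fold change was −0.37 (SE 0.08, 95% interval −0.53 to −0.20, adjusted p = 0.00339 by edgeR's quasi-likelihood test), which came to 1.29-fold and lay just outside the fold threshold. Without RYGB rat 344 or 350, or RYGB-FMRR rat 307, it came to 1.31-fold or 1.32-fold and was called. The other four genes had adjusted p-values of 0.256 (Fbp1, log2 fold change 0.19), 0.406 (Slc2a2, 0.28), 0.570 (Txnip, −0.19) and 0.627 (Hk2, −0.13) in edgeR.

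Both operated groups were also set against SD, the same 6 control rats as in the comparison with SHAM. RYGB gave 2 calls, Txnip and Slc2a2, beside 19.5% of all genes tested, and RYGB-FMRR gave 1, Slc2a2, beside 16.7% of all genes tested. Txnip in RYGB was 1.52-fold higher than in SD (log2 fold change 0.61, SE 0.21, adjusted p = 0.0197 in edgeR), and 6 of 9 rats lay above every SD rat. In RYGB-FMRR the Txnip difference from SD was 0.42 (SE 0.21, 95% interval −0.02 to 0.86, adjusted p = 0.139 in edgeR) and was not called. Slc2a2 was 1.55-fold higher in RYGB (log2 fold change 0.64, SE 0.22, adjusted p = 0.0230 in edgeR) and 1.89-fold higher in RYGB-FMRR (log2 fold change 0.92, SE 0.23, adjusted p = 0.00339 in edgeR) than in SD.

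The adjusted p of the RYGB differences from SD crossed 0.05 when single SD rats were left out, with folds close to those given. Txnip lost its call without SD rat 357, the lowest of its group (1.43-fold, adjusted p = 0.0577 in edgeR). Slc2a2 lost it without SD rat 354 (1.47-fold, adjusted p = 0.0631 in edgeR) or SD rat 355 (1.51-fold, adjusted p = 0.0534 in edgeR). The Slc2a2 difference between RYGB-FMRR and SD was called whichever rat was left out. For Fbp1 the log2 fold change from SD was −0.27 in RYGB (adjusted p = 0.0509 in edgeR) and −0.08 in RYGB-FMRR (adjusted p = 0.643 in edgeR). The RYGB difference was 1.21-fold, under the fold threshold, and its adjusted p lay on either side of 0.05. That adjusted p ran from 0.0247 to 0.133 in edgeR without 1 rat. Under 6 other ways of processing it ran from 0.0440 to 0.0720 in edgeR or DESeq2. Slc2a1 differed from SD by 0.16 in RYGB (adjusted p = 0.124 in edgeR) and by −0.20 in RYGB-FMRR (adjusted p = 0.0853 in edgeR), and Hk2 by −0.16 and −0.28 (adjusted p = 0.448 and 0.203 in edgeR), all log2 fold changes.

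**Figure D3:**
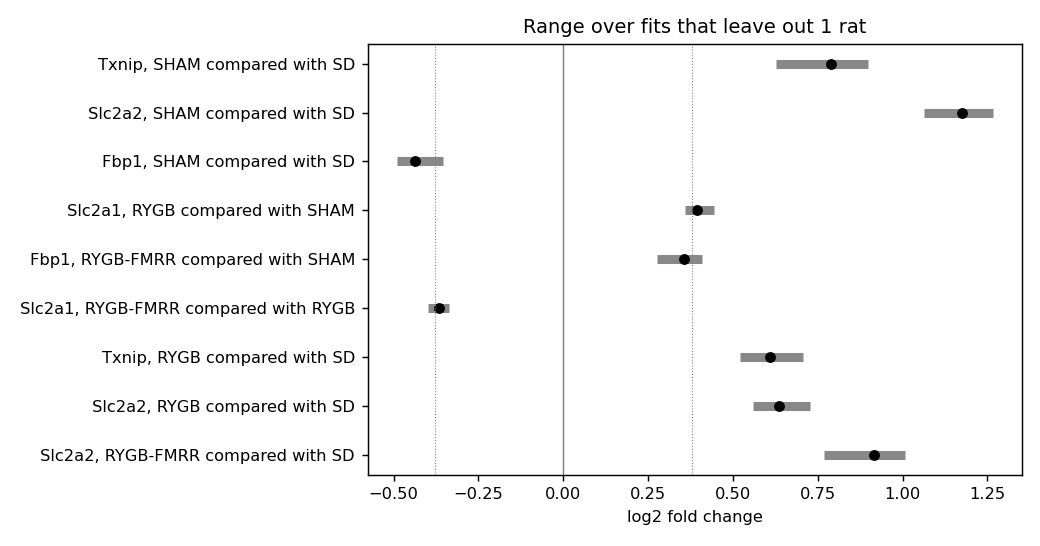
Log2 fold change of 9 results (points, horizontal axis) with the range over fits that each left out 1 of 29 rats (bars), where dotted lines mark a 1.3-fold change. The bars of Txnip and Slc2a2 in SHAM compared with SD stayed beyond the dotted line. Both Slc2a1 bars, one for RYGB against SHAM and the other for RYGB-FMRR against RYGB, crossed it. So did both Fbp1 bars, for SHAM against SD (−0.49 to −0.36) and RYGB-FMRR against SHAM (0.28 to 0.41).

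The ratio of Slc2a2 to Slc2a1, both in FPKM, describes the balance of the transporters within each rat and was given no test. It was 1.44 ± 0.3995 in SD (1.11 to 2.08), 3.94 ± 1.599 in SHAM (2.08 to 6.56), 2.02 ± 0.785 in RYGB (1.15 to 3.34) and 3.12 ± 1.08 in RYGB-FMRR (1.89 to 5.12). The highest SD rat and the lowest SHAM rat both stood at 2.08 to 3 significant digits. RYGB overlapped with all the other groups, and RYGB-FMRR lay mostly within the range of SHAM.

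**Figure D4:**
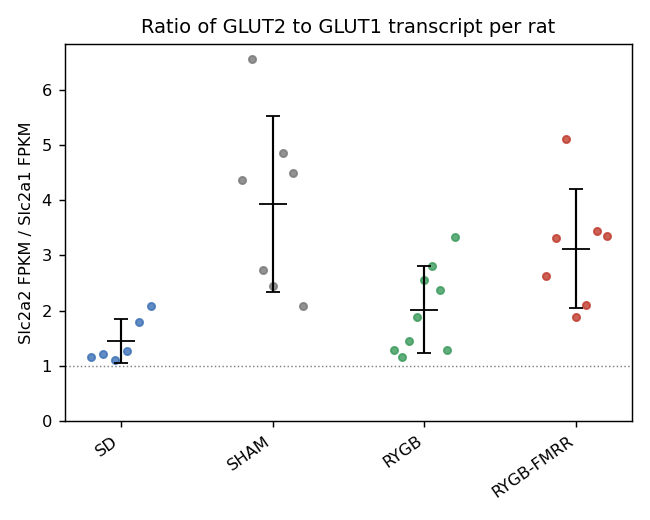
Slc2a2 level divided by Slc2a1 level, both in FPKM (vertical axis, from 0, dotted line at 1), in every rat (points) with the mean and standard deviation between rats. All 29 rats lay above 1, with means of 1.44 in SD and 3.94 in SHAM.

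The spread between rats of one group was set beside counting error. For Txnip the coefficient of variation between rats was 39.2% in SHAM and 19.4% to 25.1% in the other groups, against a counting error of 0.757% to 0.924%. Slc2a2 varied by 24.6% to 32.5% and Fbp1 by 13.4% to 16.4% within groups. Slc2a1 varied by 7.36% to 16.1%, and Hk2 by 9.61% in RYGB, where counting error alone gave 8.20%, and by 20.0% to 32.0% elsewhere.

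Whether the genes varied together from rat to rat was examined on log2 CPM, as 10 pairs over 29 rats after the mean of each group was subtracted. None of the 10 pairs passed a permutation test at an adjusted p under 0.05. The largest coefficients were 0.38 for Slc2a2 and Fbp1 (Spearman's rho 0.48, permutation adjusted p = 0.253 and 0.0734) and −0.38 for Slc2a1 and Slc2a2 (rho −0.47, permutation adjusted p = 0.253 and 0.0734). Without the 2 rats farthest from the median of the first gene, these were 0.29 and −0.44. Txnip and Slc2a1 had r = −0.38 (rho −0.33, permutation adjusted p = 0.257 and 0.355), or −0.21 without 2 rats.

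Within SHAM, where Txnip spread most, Slc2a1 was low in rats with high Txnip and in rats with high Slc2a2. Rat 333 and rat 315, with the highest Txnip levels (513 and 374 FPKM), had the lowest Slc2a1 levels (17.4 and 16.9 FPKM). Rats 321 and 340, with the lowest Txnip levels, had the highest Slc2a1 levels (22.6 and 24.7 FPKM) and the lowest Slc2a2 levels (55.3 and 51.3 FPKM). Pearson's r over the 7 rats was −0.87 for Txnip and Slc2a1 (rho −0.89, exact permutation p = 0.0137 and 0.0123) and −0.87 for Slc2a1 and Slc2a2 (rho −0.86, exact permutation p = 0.0135 and 0.0238). Adjusted over the 40 relations of 10 pairs in 4 groups, the exact permutation p was 0.198 for both by r and 0.318 by rho, so neither passed. Without the 2 rats farthest from the median they were −0.74 and −0.85. Txnip and Slc2a2 had r = 0.74 in SHAM (rho 0.61, exact permutation p = 0.0685 and 0.167), which fell to 0.13 without rats 321 and 340. Leaving out these 2, the lowest in Txnip, also narrowed the Txnip range. The fall therefore cannot show whether the relation rests on them. In RYGB-FMRR, Slc2a2 and Fbp1 had r = 0.86 (rho 0.86, exact permutation p = 0.0149 and 0.0238, adjusted 0.198 and 0.318), or 0.65 without 2 rats, which did not pass either. In RYGB, Txnip and Slc2a1 had r = 0.48 (rho 0.37, exact permutation p = 0.189 and 0.336), on the other side of 0, and that difference between groups was not tested.

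**Figure D5:**
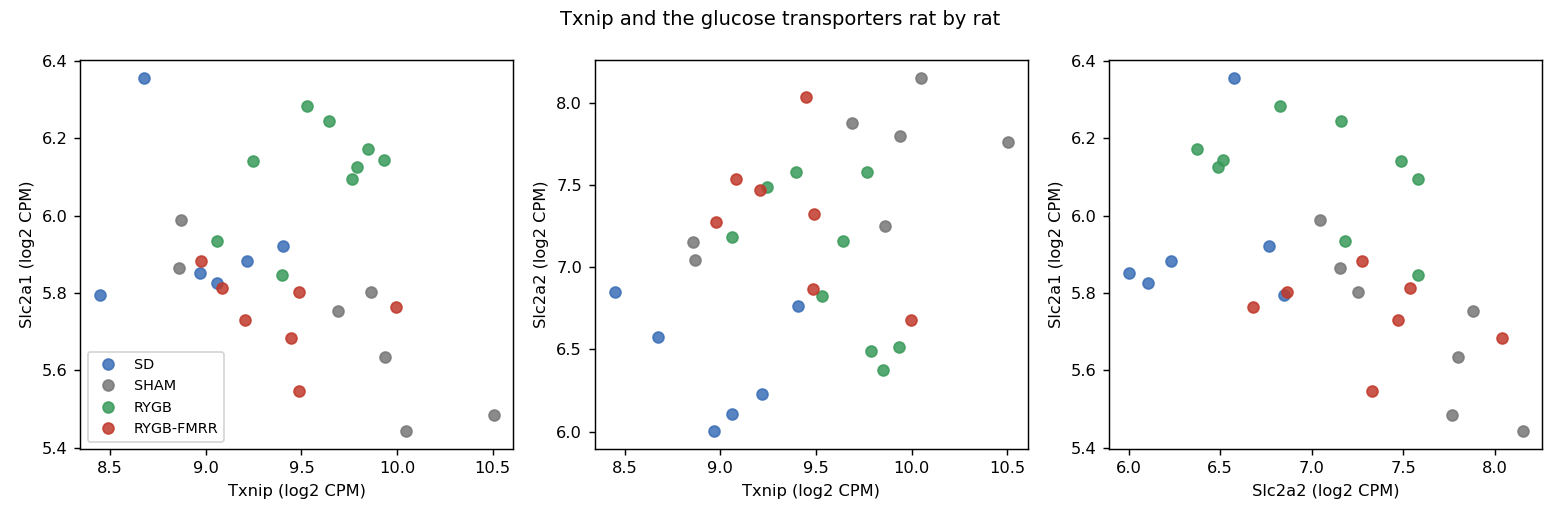
Log2 CPM of Txnip against Slc2a1 (left), Txnip against Slc2a2 (middle) and Slc2a2 against Slc2a1 (right) in each of the 29 rats, coloured by group. SHAM rats fell along a downward line in the left and right panels (r = −0.87 in each, 7 rats), and RYGB rats did not do so in the left panel (r = 0.48, 9 rats). Neither SHAM relation passed the exact permutation test after adjustment over 40 relations (adjusted p = 0.198 by r in each).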

How the data were processed

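RNA sequencing of renal cortex was analysed per rat, with groups taken from the labels. The authors made stranded, ribosome-depleted total RNA libraries, trimmed read pairs with Trim Galore, aligned them to rn5 with STAR and counted them over Ensembl exons on the reverse strand with featureCounts 1.6.4. The deposited values are raw counts per gene, not normalized. Reads that match several places are not counted by default, which could lower genes with near-identical copies.

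Libraries with totals under 1000000 were left out here, and no libraries within a group held identical counts. TMM scaling, filterByExpr (minimum count 10) and the quasi-likelihood test of edgeR 4.0.16 (R 4.3.3) were applied to a single model of the 4 groups without covariates. Adjusted p-values cover all 14776 genes tested. The thresholds (1.3-fold, adjusted p 0.05) follow the study's methods, which used DESeq2, and the Wald test of DESeq2 1.42.0 was an alternative. Log2 CPM used a prior count of 2. FPKM divides TMM-scaled CPM by exon length. Correlations used 100000 permutations within groups, or every order of the rats for single groups. The scripts were tested on simulated data.

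The genes named are the 5 members throughout. These, and the lists, were chosen with earlier results of these data known. Lists of pathway genes and of cell type markers, and the search for genes with the most similar pattern, needed names for the identifiers and were not analysed here. Other alternatives were DESeq2's size factors in edgeR, no filter on low counts, all 31 libraries, adjusted p alone, models of only the compared groups, and leaving out each rat.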

Additional observations from a re-analysis of the deposited data

Results flagged for a closer look

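In 20 combinations of gene and group, the rat at either end was compared with the rest by Dixon's criterion, which chance meets in about 1 in 20 groups. It was met in 2. SD rat 352 had the highest Slc2a1 level of its group (log2 CPM 6.36, 31.8 FPKM), apart from the other SD rats. SHAM rat 333 had the lowest Fbp1 level of its group (log2 CPM 9.26, 465 FPKM), and the same rat had the highest Txnip level of all 29 rats (513 FPKM). Rat 333 also had the lowest total of the 29 libraries used (14502127). Without scaling between libraries, its Txnip and Fbp1 levels were 576 and 522 FPKM. The cause was not tested in either case.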

How the results depend on the processing

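Counts of called genes depended most on the fold threshold and on single rats. With the adjusted p alone (edgeR), RYGB-FMRR had 1 call against SHAM (beside 21.9% of all genes tested) and 1 against RYGB (beside 11.5%), in place of 0, and SHAM had 4 against SD (beside 35.2%), in place of 3. The added call in SHAM, Slc2a1, was lost without SD rat 352 (adjusted p = 0.199 in edgeR), among other single rats. In RYGB compared with SHAM, 2 genes were called when DESeq2's Wald test was run with all 31 libraries, an alternative chosen after seeing the data, beside 4.24% of all genes, the second being Slc2a2 (log2 fold change −0.57, adjusted p = 0.0323 in DESeq2). With 1 rat left out, the number called for RYGB was 1 to 2 against SD and 0 to 2 against SHAM, for RYGB-FMRR it was 0 to 1 against RYGB as well as 0 to 1 against SHAM, and for SHAM it was 2 to 4 against SD. The log2 fold change in RYGB-FMRR compared with SHAM then crossed 0 for Slc2a1 (−0.0109 to 0.0764) and Hk2 (−0.0133 to 0.158). Without subtracting group means, 2 pairs of genes passed in place of 0, Txnip and Fbp1 (r = −0.55) and Slc2a1 and Slc2a2 (r = −0.49), and r changed sign for Txnip and Slc2a2 (0.31), Slc2a1 and Fbp1 (0.0022), Slc2a1 and Hk2 (0.18), Slc2a2 and Fbp1 (−0.11) and Slc2a2 and Hk2 (−0.11). Of 870 log2 fold changes refitted with 1 rat left out, 849 kept their direction and their call or lack of one. The 870 include fits that left out a rat of neither compared group, which moved the fold change little. Under the other alternatives 179 of 180 were kept, a count that leaves out adjusted p alone. No paired analysis was possible because the replicate numbers only name rats in the order of the samples. Hk2, with as few as 86 counts in a library, was the gene most limited by depth.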

Other observations

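The 2 SHAM libraries left out for their low totals still held counts of 4 of the 5 genes. Without scaling between libraries, Txnip stood at 212 FPKM in rat 343 (73 counts, exact Poisson 95% interval 166 to 267) and 338 FPKM in rat 348 (97 counts, 274 to 412). Slc2a2 stood at 76.8 FPKM (24 counts, 49.2 to 114) and 103 FPKM (27 counts, 68.1 to 150), both above the highest SD rat on the same unscaled measure, at 42.1 FPKM. Fbp1 stood at 804 FPKM (129 counts, 671 to 956) and 948 FPKM (127 counts, 790 to 1127), both inside the unscaled SD range of 785 to 1036 FPKM and the second above every SHAM rat used, of which the highest was 851 FPKM. Slc2a1 stood at 19.2 FPKM (6 counts) and 15.3 FPKM (4 counts). Hk2 had 0 counts in both, for which the upper bound of the same exact interval is 8.356 and 10.0004 FPKM (3 counts would be 6.80 and 8.13 FPKM), above every level measured in the other rats. These intervals cover counting error only.

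Genes lying within 1000000 bases of each of the 5 were examined after the data had been seen. In SHAM compared with SD, where 18.6% of all genes tested were called, edgeR called 3 of 4 genes tested around Slc2a2, all lower in SHAM, the opposite of Slc2a2 itself. Around Txnip 10 of 43 (23.3%) were called, 9 higher and 1 lower. Around Fbp1 0 of 7 were called, around Slc2a1 3 of 25 (12%), and around Hk2 3 of 16 (18.8%), shares near that of all genes for Txnip and Hk2. In RYGB compared with SHAM, where 5.35% of all genes tested were called, 2 of 25 genes around Slc2a1 (8%) were, 1 higher and 1 lower.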
